A study of Mus musculus with 10 samples.

Results

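The neighbours of Cftr on mouse chromosome 6, 10 genes in all, were followed across every array of the series. They were chosen by gene symbol, as genes close enough to Cftr to be inherited with its disrupted allele: Slc13a1, Tspan12, Met, Cav1, Cav2, Capza2, St7, Cttnbp2, Ing3 and Fam3c. These are 10 of the 18193 genes that the array annotation names, they are read by 19 probe sets, and all 10 had a probe set above the level required for testing. A probe set is a group of short oligonucleotides on the array that together report 1 transcript, and a gene with several was represented in the tests by its brightest.

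The series measured RNA of B6xBALB F2 mice on 10 expression arrays; F2 mice descend by 2 generations from a cross of inbred strains, here C57BL/6 and BALB/c. Of these, 8 came from cystic fibrosis knockout mice, in which both copies of the chloride channel gene Cftr are disrupted, 5 of them with the code H and 3 with the code L in their titles. What H and L stand for is not spelled out; variable weight is mentioned in the series title. The 2 controls, whose Cftr genotype is not given beyond the word control, carry the letters D and W, which are not spelled out either. Each title also holds an M (6 samples) or an F (4 samples) and a number, by which the samples fall into a lower range with both controls, 2 knockout H and 1 knockout L, and an upper range with 3 knockout H and 2 knockout L. No age, treatment or disrupted allele is given, and further animals named in the design text were not analysed here. The right lung is labelled as the source, although an intestinal phenotype stands in the series title. The title numbers are the only sign that the samples are separate animals, so that p-values measure the spread between these samples.

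Genes that lie close together on a chromosome are passed on together. In an F2 animal picked for 2 disrupted copies of a gene, the alleles around that gene come largely from the strain or embryonic stem cell line that carried the disruption. The alleles that the controls hold there are not given. The neighbours of Cftr were therefore a place where strain alleles and the loss of Cftr cannot be told apart by design. The genes themselves have unrelated roles. Slc13a1 carries sulfate into epithelial cells with sodium, Met is the receptor of hepatocyte growth factor, Tspan12 is a tetraspanin that aids Norrin signalling through the receptor Frizzled-4, Cav1 and Cav2 build the flask-shaped membrane pits called caveolae, and Capza2 is a subunit of the actin capping protein.

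Sequence upstream of 4 of the members described below is shown so that they can be compared. It covers the 250 bases before the start of transcription in the RefSeq promoter table of GRCm38.p6, written 5′ to 3′ on the strand of the gene, with capitals for the GC box GGGCGG and the TATA box TATAAA or their reverse complements. Shown are Met and Tspan12, which were higher in the knockouts, and the neighbouring pair Cav1 and Cav2. The Met stretch lies at chr6:17463707-17463956 on the plus strand, that of Tspan12 at chr6:21852534-21852783 on the minus strand, that of Cav1 at chr6:17306085-17306334 and that of Cav2 at chr6:17280935-17281184, both on the plus strand.
Met: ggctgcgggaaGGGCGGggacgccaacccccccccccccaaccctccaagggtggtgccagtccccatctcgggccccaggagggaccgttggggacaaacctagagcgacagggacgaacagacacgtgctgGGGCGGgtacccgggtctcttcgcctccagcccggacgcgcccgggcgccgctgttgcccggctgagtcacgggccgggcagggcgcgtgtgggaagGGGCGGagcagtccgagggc
Tspan12: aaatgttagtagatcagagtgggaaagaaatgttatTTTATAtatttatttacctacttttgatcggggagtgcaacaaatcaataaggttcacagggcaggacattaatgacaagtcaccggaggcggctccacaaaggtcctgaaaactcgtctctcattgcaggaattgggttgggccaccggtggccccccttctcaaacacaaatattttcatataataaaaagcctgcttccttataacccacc
Cav1: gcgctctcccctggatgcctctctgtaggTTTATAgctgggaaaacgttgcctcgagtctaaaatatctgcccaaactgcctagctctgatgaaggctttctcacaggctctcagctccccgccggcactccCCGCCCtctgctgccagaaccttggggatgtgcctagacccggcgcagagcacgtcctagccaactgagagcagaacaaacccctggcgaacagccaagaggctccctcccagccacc
Cav2: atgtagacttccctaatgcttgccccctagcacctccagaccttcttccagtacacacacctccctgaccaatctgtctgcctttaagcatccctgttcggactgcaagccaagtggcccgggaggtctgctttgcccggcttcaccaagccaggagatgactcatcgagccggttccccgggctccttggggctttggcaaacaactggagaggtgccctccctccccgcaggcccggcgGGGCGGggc
The Met stretch held 3 GC boxes, 24 CpG dinucleotides and 74.0% G and C. That of Tspan12 held no GC box, 1 TATA box, 5 CpG dinucleotides and 42.0% G and C, against a median of 52.4% over all promoters of the table. Both listed starts lie inside the span of their gene. The Cav1 stretch held 1 GC box and 1 TATA box and that of Cav2 1 GC box. Among 32851 promoters of the same length, 32.7% held a GC box and 12.4% a TATA box on either strand. In all, 13 entries covered 9 of the 10 members, all but Slc13a1, for which no entry was found. Of these 9 members, 6 had a GC box and 3 a TATA box in at least 1 entry.

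Differences below are log2 differences of log2(intensity + 16), estimated by limma with number range and letter (M or F) as covariates, with standard errors. The addition of 16 makes the difference of a dim gene smaller than the ratio of its intensities. Because the controls are both of the lower number range, the estimates of knockout against control rest mainly on the 3 knockouts and 2 controls of that range. A difference was called where its p, adjusted over all 13644 genes tested, was under 0.05. The arrays bear out the genotype labels: Cftr (1420579_s_at) read 131 and 137 in the controls and from 19.7 to 35.4 in the 8 knockouts, a difference of -1.91 ± 0.16 (limma, adjusted p = 0.00528). That call was lost only without control replicate 1 (adjusted p = 0.0894). Array medians lay between 18.4 and 18.8. Markers of enterocytes, the absorptive cells of the intestinal lining, summed to between 46596 and 48744 in the controls and between 30354 and 39482 in the knockouts. The lung epithelium markers summed to between 5239 and 5521 in the controls and between 4307 and 13661 in the knockouts, with knockout H replicates 2 and 5 highest, so both intestinal and lung transcripts were present.

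In knockout against control 2 of the 10 members were called: Slc13a1 fell and Tspan12 rose. Over all genes tested the share called was 4.31%. In 4 of the 10 the brightest probe set did not overlap between the 8 knockouts and the 2 controls, Slc13a1 being lower and Tspan12, Met and St7 higher in every knockout, where 21.8% of all genes tested did not overlap. At an unadjusted p under 0.05 there were 4 members, against 19.4% of all genes. Of the estimated differences 7 lay above 0 and 3 below, with a median of 0.12 against -0.0047 over all genes. The members thus did not share a direction.

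**Figure D1:**
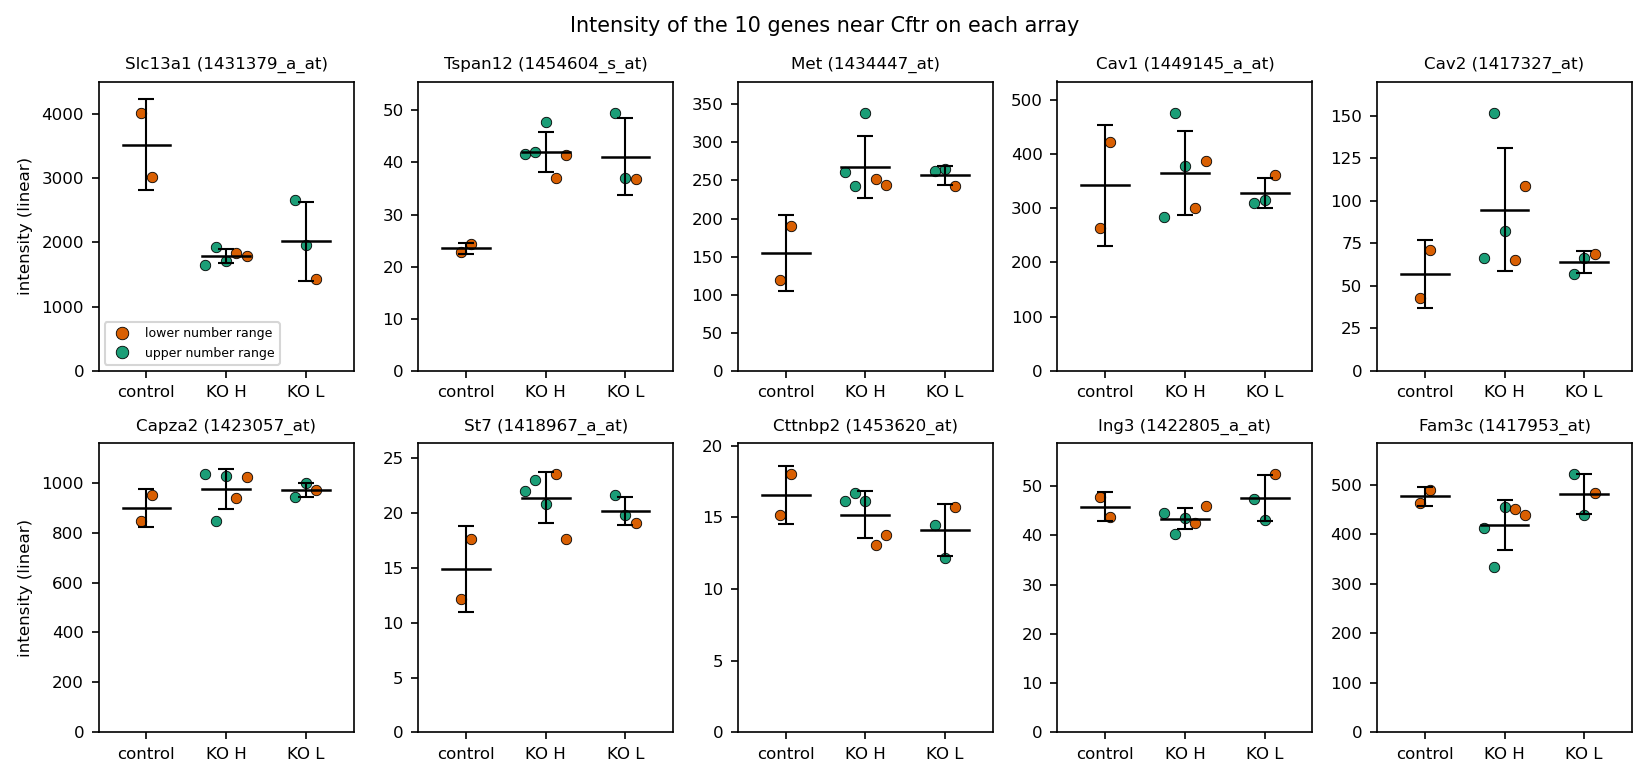
Intensity of the brightest probe set of each of the 10 members on every array (linear axis from 0), in the controls, knockout H and knockout L. Each point is 1 array, coloured by number range, with the mean and SD of its group in black. All 8 knockouts lie below both controls for Slc13a1 and above both for Tspan12, Met and St7, whereas the groups overlap for the other 6.

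Slc13a1, the sodium-sulfate cotransporter of the brush border of gut and kidney, was the member with the largest change. Its brighter probe set (1431379_a_at) read 4017 and 3022 in the controls. Knockout H replicates 1 to 5 read 1647, 1932, 1711, 1836 and 1782, and knockout L replicates 1 to 3 read 2659, 1960 and 1430. Every knockout lay below both controls. The H arrays stayed within a narrow band, whereas the L arrays spread on both sides of it. The means were 1870 ± 361 (SD, n = 8) in the knockouts and 3520 ± 704 (SD, n = 2) in the controls, and the difference was -1.06 ± 0.21, a 2.09-fold decrease (limma, adjusted p = 0.0285). The second probe set (1430804_at) read 307.8 and 323 in the controls, 201, 181, 325, 185 and 215 in knockout H, and 478, 267 and 147 in knockout L. In 6 of the 8 knockouts it lay below both controls, while 2 exceeded both controls, replicate 1 of knockout L and replicate 3 of knockout H. Its difference of -0.73 ± 0.34 was not called when every probe set was tested on its own (limma, adjusted p = 0.306). The mean of both probe sets gave -0.90 and lost the call (limma, adjusted p = 0.0969).

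The Slc13a1 call rested on each array of the lower number range. It was lost without control replicate 1 (difference -0.81, adjusted p = 0.299), control replicate 2 (adjusted p = 0.0909), knockout H replicate 4 (adjusted p = 0.0718), knockout H replicate 5 (adjusted p = 0.0643) or knockout L replicate 3 (adjusted p = 0.0774), all by limma. Most enterocyte markers moved with it: of the 16 tested, 12 had differences below 0 and 4 above, with a median of -0.55. In all 8 knockouts 9 were lower than in both controls, as were 11.7% of all genes tested, and 1 was higher. In either direction 21.8% of all genes tested did not overlap between knockouts and controls. Of the 16, 4 were called lower in the knockouts and none higher, where 4.31% of all genes tested were called in either direction. The 4 were Anpep, a brush border peptidase (-1.23 ± 0.21, adjusted p = 0.0178), Fabp2, the intestinal fatty acid binding protein (-0.93 ± 0.17, adjusted p = 0.0215), Cdx2, the intestinal transcription factor (-0.85 ± 0.12, adjusted p = 0.0111), and villin (Vil1), the actin bundling protein of microvilli (-0.51 ± 0.08, adjusted p = 0.0161, all limma). Each of these 4 calls was lost without control replicate 1 (adjusted p from 0.156 to 0.215) or control replicate 2 (adjusted p from 0.0712 to 0.124). Those of Anpep (adjusted p = 0.0533), Fabp2 (0.0600) and Vil1 (0.0505) were also lost without knockout H replicate 4, and that of Fabp2 without knockout L replicate 3 (0.0644). Among the 8 knockouts the mean enterocyte marker level correlated with Slc13a1 (Pearson r = 0.83, exact permutation p = 0.0182, adjusted over 122 relations 0.171; Spearman rho = 0.69, exact permutation p = 0.0694). Without knockout L replicates 1 and 3 r was 0.07, so the relation rested on those arrays. The part of these markers in the decrease was not tested, and in bulk RNA fewer cells of a type and less RNA per cell cannot be told apart.

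Sulfate handling beyond Slc13a1 was followed in 19 tested genes for sulfate uptake, activation and transfer. Of the 19, 1 was called in knockout against control (5.26%, against 4.31% of all genes tested). This was Slc13a2, which fell, a related sodium-coupled carrier of dicarboxylates rather than sulfate. It averaged 837 ± 113 (SD, n = 8) in the knockouts and 1551 ± 51.1 (SD, n = 2) in the controls, a difference of -0.97 ± 0.15 (limma, adjusted p = 0.0161). This call was lost without control replicate 1 (adjusted p = 0.174), control replicate 2 (adjusted p = 0.0909) or knockout H replicate 5 (adjusted p = 0.0512). Differences of 13 of the 19 genes lay below 0, with a median of -0.19. Of the 19, 7 were lower in all 8 knockouts than in both controls, where 11.7% of all genes tested were.

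Tspan12, the tetraspanin, was low on every array and higher in all knockouts. Its single probe set (1454604_s_at) read 22.8 and 24.3 in the controls. Knockout H read 41.5, 42.1, 47.7, 37.1 and 41.5, and knockout L read 49.6, 37.0 and 36.8. The lowest knockout stood clear of the higher control, so the groups did not overlap. The means were 41.7 ± 4.88 (SD, n = 8) against 23.5 ± 1.07 (SD, n = 2), and the difference was 0.48 ± 0.08, a 1.40-fold increase on the scale with 16 added (limma, adjusted p = 0.0176). The call was lost without control replicate 1 (adjusted p = 0.157), control replicate 2 (adjusted p = 0.141), knockout H replicate 4 (adjusted p = 0.0579), knockout H replicate 5 (adjusted p = 0.0599) or knockout L replicate 3 (adjusted p = 0.0532). The difference itself stayed between 0.24 and 0.72 over all alternatives, the lowest and highest of which came with other added constants.

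Of the 19 tested genes of Norrin and Frizzled-4 signalling and the tetraspanin family, 1 was called (5.26%, against 4.31% of all genes tested). This was Tspan1, a tetraspanin of epithelial cells, which rose. It averaged 1881 ± 380 (SD, n = 8) in the knockouts and 841 ± 29.9 (SD, n = 2) in the controls, a difference of 1.08 ± 0.24 (limma, adjusted p = 0.0422). The Tspan1 call was lost without any 1 of 8 arrays, all but knockout H replicates 2 and 3, with adjusted p from 0.0557 (without knockout L replicate 1) to 0.300 (without control replicate 1). Frizzled-4 (Fzd4), the receptor that Tspan12 is known to act with, averaged 36.3 ± 7.47 (SD, n = 8) and 33.3 ± 6.85 (SD, n = 2) and was not called.

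Met encodes the receptor tyrosine kinase for hepatocyte growth factor, which drives growth and movement of epithelial cells. Its brighter probe set (1434447_at) read 120 and 190 in the controls. Knockout H read 261, 242, 339, 252 and 244, and knockout L read 262, 265 and 243. All 8 knockouts lay above both controls, 7 of them within a narrow band and knockout H replicate 3 above it. The difference was 0.68 ± 0.16 and missed the threshold (limma, adjusted p = 0.0533). The second probe set (1422990_at) read 34.8 and 31.0 in the controls, 63.9, 49.5, 59.5, 72.0 and 65.1 in knockout H, and 48.2, 58.8 and 70.2 in knockout L. Here too every knockout stood above both controls, and the difference of 0.78 ± 0.10 was called when each probe set was tested on its own (limma, adjusted p = 0.0105). The 2 probe sets did not rank the 8 knockouts alike (Pearson r = -0.12 over 8 arrays, as a description).

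The call on Met therefore depended on the setting. With the mean of both probe sets it was called (0.73, adjusted p = 0.0154), as it was without covariates (0.74, adjusted p = 0.0108), in the lower number range alone (0.69, adjusted p = 0.0348) and without knockout H replicate 2 (adjusted p = 0.0424) or replicate 3 (adjusted p = 0.0398), all limma. It was not called without control replicate 1 (0.36, adjusted p = 0.456), which gave the smallest estimate, or without control replicate 2 (0.95, adjusted p = 0.0719), which gave the largest. Fibroblast markers were also higher in the knockouts: all 7 differences lay above 0, with a median of 0.33, and the markers summed to between 2750 and 3266 in the controls and between 3031 and 4525 in the knockouts. Over the 8 knockouts their mean level had a Pearson r of 0.32 with Met (exact permutation p = 0.484, adjusted over 122 relations 0.797; Spearman rho = 0.19, p = 0.665; r = 0.58 without knockout H replicate 1 and knockout L replicate 2). For Tspan12 r was 0.36 (exact permutation p = 0.369, adjusted 0.739; Spearman rho = 0.38, p = 0.360; r = 0.33 without the same arrays). The part of these cells in the Met and Tspan12 values was not tested. Of 16 tested genes for the ligand, its activators, inhibitors and partners, 1 was called (6.25%, against 4.31% of all genes tested). That gene, Cd44, a cell surface glycoprotein that can act as a coreceptor of Met, averaged 325 ± 61.3 (SD, n = 8) in the knockouts and 127 ± 17.1 (SD, n = 2) in the controls, a difference of 1.08 ± 0.18 (limma, adjusted p = 0.0181). Its call was lost without control replicate 1 (adjusted p = 0.218), knockout H replicate 4 (adjusted p = 0.0558) or knockout L replicate 3 (adjusted p = 0.0572). The ligand itself, Hgf, read near the array medians, at 23.3 ± 4.39 (SD, n = 8) against 15.9 ± 0.0308 (SD, n = 2), and was not called.

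**Figure D2:**
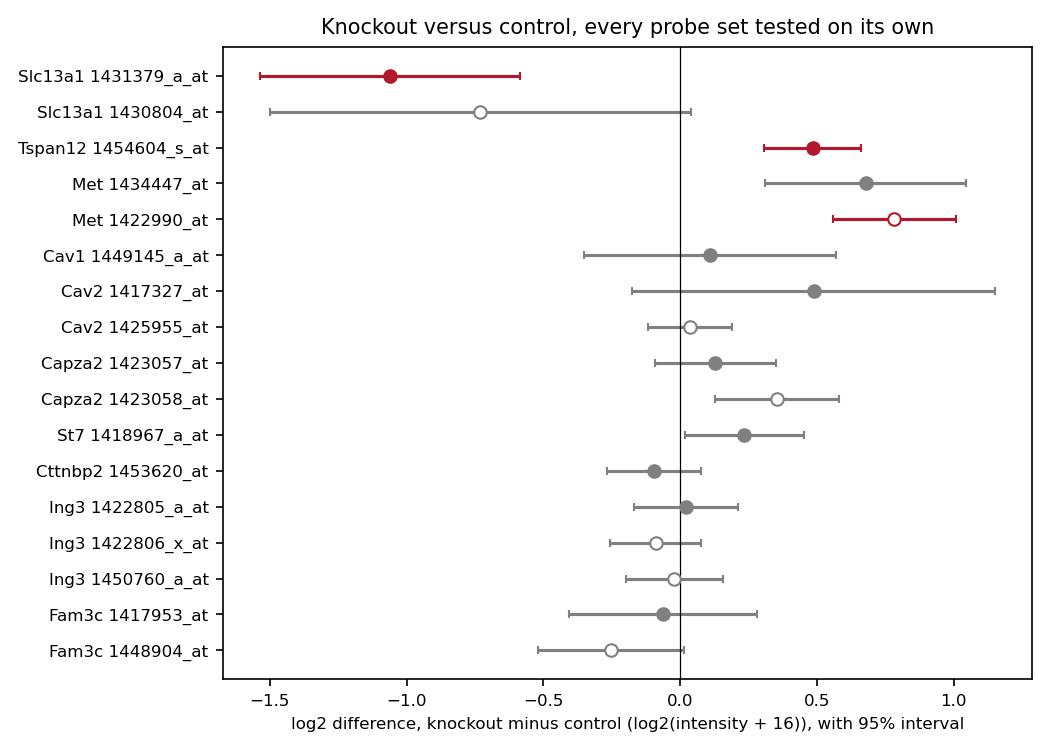
Log2 difference of knockout against control, with its 95% confidence interval, for each member probe set tested on its own. Red marks the probe sets past the threshold, and filled points the brightest probe set of a gene. Both Met probe sets lie above 0 and both of Slc13a1 below, while only 1 probe set of each is past the threshold in this fit.

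The caveolins, the coat proteins of caveolae, were read by 1 probe set for Cav1 and 2 for Cav2. Cav1 (1449145_a_at) read 263 and 422 in the controls, 284, 477, 378, 301 and 387 in knockout H, and 310, 314 and 361 in knockout L. The groups overlapped, and the difference of 0.11 ± 0.21 was not called (limma, adjusted p = 0.834; 95% interval -0.35 to 0.57). Cav2 (1417327_at) read 42.7 and 70.9 in the controls, 66.3, 152, 82.0, 65.1 and 109 in knockout H, and 56.6, 66.5 and 68.9 in knockout L. Knockout H replicates 2 and 5 stood above the rest, and the difference of 0.49 ± 0.30 was not called (limma, adjusted p = 0.421). Of 24 alternative settings 1 called Cav2, that of the lower number range alone, with 2 controls and 3 knockouts (0.51, limma, adjusted p = 0.0189). The groups overlapped there too, since 1 control read 70.9 and 2 of the knockouts 65.1 and 68.9. The second Cav2 probe set (1425955_at) stayed between 10.6 and 14.6 on all arrays, with a difference of 0.04 ± 0.07 (limma, adjusted p = 0.860).

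The levels of Cav1 and of the brighter Cav2 probe set tended to vary together over the arrays, but the relation did not pass the adjustment. Over the 8 knockouts their Pearson correlation was 0.91 (exact permutation p = 0.00136, adjusted over 122 relations 0.0555). Their Spearman correlation was 0.90 (exact permutation p = 0.00456, adjusted 0.147). Without knockout H replicates 2 and 1, the arrays farthest from the median of Cav1, r was 0.83. The second Cav2 probe set did not follow the brighter probe set (Pearson r = -0.28 over the 8 knockouts, as a description). The same replicates 2 and 5 that were highest in Cav2 were highest in the mean level of the 12 endothelium markers and of the 14 lung epithelium markers. Over the 8 knockouts Cav2 correlated with the endothelium markers (Pearson r = 0.93, exact permutation p = 0.0128, adjusted 0.171; Spearman rho = 0.45, exact permutation p = 0.268). Without those arrays r was -0.31, so that this relation rested on them. The part of these cells in the Cav2 values was not tested. Each number range holds 5 arrays, too few for a value within it. None of the 9 tested genes of the caveola list was called; the smallest p was that of Pacsin3, an adaptor of caveolae, at -0.33 ± 0.08 (limma, adjusted p = 0.0585).

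**Figure D3:**
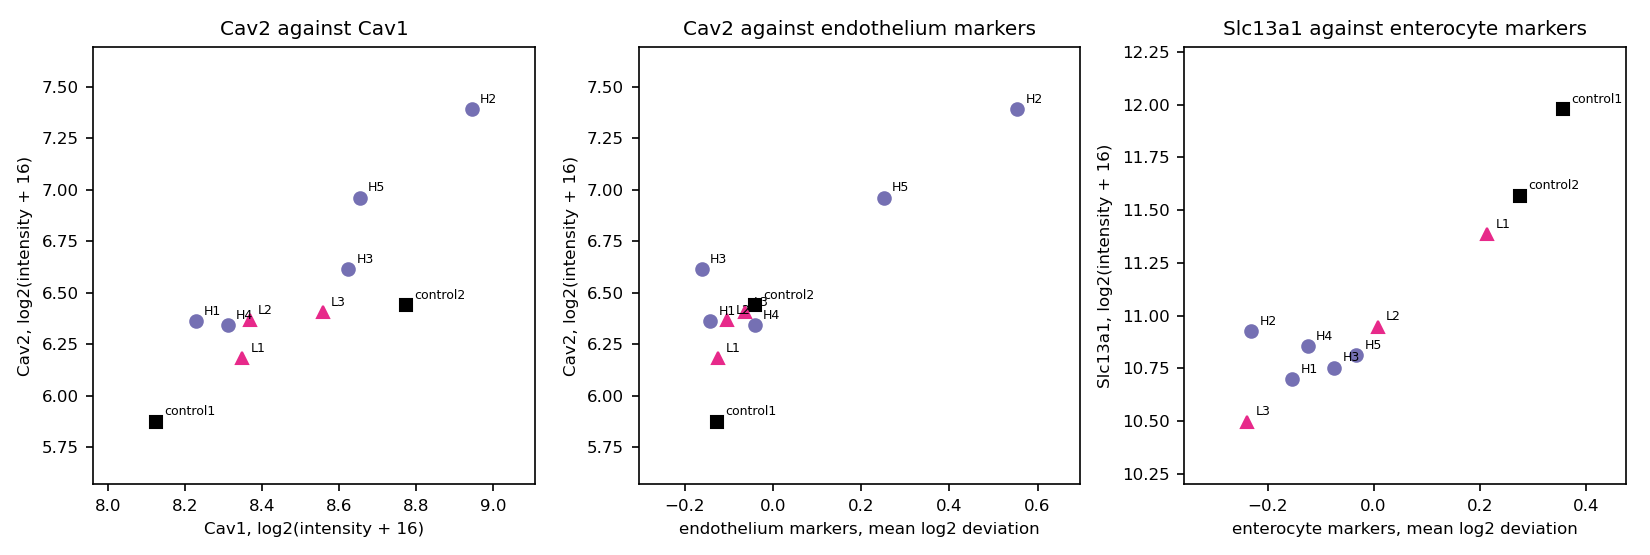
Member levels against each other or against marker levels, as log2(intensity + 16) or the mean log2 deviation of the markers, with 1 labelled point per array and shapes for the groups. Cav1 and the brighter Cav2 probe set tend to rise together, and Cav2 is highest on the arrays highest in endothelium markers (knockout H replicates 2 and 5). Slc13a1 is highest in the controls and in knockout L replicate 1, where enterocyte markers are highest.

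Capza2, the alpha-2 subunit of the protein that caps growing actin filaments, was bright and varied little. Its brighter probe set (1423057_at) read 845 and 951 in the controls, 1034, 848, 1026, 937 and 1022 in knockout H, and 942, 997 and 969 in knockout L. The groups overlapped, and the difference was 0.13 ± 0.10 (limma, adjusted p = 0.546). The other probe set (1423058_at) read 609 and 637 in the controls, 960, 781, 849, 791 and 861 in knockout H, and 823, 912 and 745 in knockout L. All 8 knockouts lay above both controls there, but the difference of 0.36 ± 0.10 was not called (limma, adjusted p = 0.0964).

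Among 10 tested genes of actin capping and severing, 3 were called (30.0%, against 4.31% of all genes tested). Capza1, the alpha-1 counterpart of Capza2, rose by 0.35 ± 0.07 (adjusted p = 0.0337) and Capg, a related capping protein of the gelsolin family, by 1.03 ± 0.21 (adjusted p = 0.0324, limma). The third was villin, which fell as given above. Capza1 lost its call without either control, knockout H replicate 4 or 5, or knockout L replicate 1 or 2 (adjusted p from 0.0557 to 0.215). Capg lost its call without either control, knockout H replicate 4 or 5, or knockout L replicate 2 or 3 (adjusted p from 0.0537 to 0.319). Over the list 5 of 10 differences lay above 0.

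St7, a membrane protein first studied as a candidate tumour suppressor, read near the array medians. Its probe set (1418967_a_at) gave 12.1 and 17.6 in the controls, 21.96, 23.0, 20.8, 23.5 and 17.6 in knockout H, and 21.6, 19.8 and 19.1 in knockout L. All 8 knockouts were above both controls, knockout H replicate 5 only just, and the difference of 0.24 ± 0.10 was not called (limma, adjusted p = 0.231). The St7 estimate was 0.08 without control replicate 1 and 0.36 without control replicate 2. Cttnbp2, a cortactin binding protein of neurons, lay below the array medians on every array. It read 15.2 and 18.03 in the controls, 16.2, 16.7, 16.2, 13.1 and 13.8 in knockout H, and 14.5, 12.2 and 15.7 in knockout L, with a difference of -0.09 ± 0.08 (limma, adjusted p = 0.581). Its groups overlapped. Cttnbp2 is known to bind the striatin complex, of which 1 of 10 tested genes was called, against 4.31% of all genes tested. This was Mob4, a kinase adaptor, which rose by 0.61 ± 0.09 (limma, adjusted p = 0.0130). The Mob4 call was lost without control replicate 1 (adjusted p = 0.120) or 2 (adjusted p = 0.0909).

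Ing3 is a reader subunit of the NuA4/TIP60 histone acetyltransferase complex. Its brightest probe set (1422805_a_at) read 47.8 and 43.7 in the controls, 44.5, 40.3, 43.6, 42.5 and 46.0 in knockout H, and 47.4, 43.1 and 52.4 in knockout L. The values overlapped throughout, and the difference of 0.02 ± 0.09 had a 95% interval of -0.18 to 0.22 (limma, adjusted p = 0.933). None of the 3 Ing3 probe sets tested on their own was called. None of the 19 tested genes of the complex and the ING family was called either; Ing2 had the smallest p, at -0.28 ± 0.08 (limma, adjusted p = 0.0884).

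Fam3c encodes a secreted cytokine-like protein. Its brighter probe set (1417953_at) read 463 and 490 in the controls, 413, 334, 455, 450 and 439 in knockout H, and 521, 440 and 483 in knockout L, with a difference of -0.06 ± 0.15 (limma, adjusted p = 0.880). All 5 knockout H arrays lay below both controls, whereas the L arrays lay on both sides. The lowest array, knockout H replicate 2, was the highest in lung epithelium markers. Over the 8 knockouts Fam3c correlated inversely with the mean level of the 14 lung markers (Pearson r = -0.81, exact permutation p = 0.0103, adjusted over 122 relations 0.171; Spearman rho = -0.86, exact permutation p = 0.0107), and r was -0.64 without knockout H replicates 2 and 5. With the 11 smooth muscle markers it correlated directly (Pearson r = 0.77, exact permutation p = 0.00945, adjusted 0.171; Spearman rho = 0.83, exact permutation p = 0.0154), and r was 0.90 without knockout H replicate 3 and knockout L replicate 3. Neither passed the adjustment, and the part of these cells in the Fam3c values was not tested. The second probe set (1448904_at) read 137 and 136 in the controls, 87.3, 100.02, 122, 122 and 106 in knockout H, and 116, 122 and 114 in knockout L. All 8 knockouts lay below both controls, and the difference of -0.25 ± 0.12 was not called (limma, adjusted p = 0.311). Of 4 tested genes of its family and proposed receptors none was called, the smallest p being that of Fam3b at 0.34 ± 0.15 (limma, adjusted p = 0.257).

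The H and L knockouts were also set against the controls separately. These comparisons share the 2 controls and are given side by side. Slc13a1 differed by -1.09 ± 0.23 in H (adjusted p = 0.0514) and -0.97 ± 0.27 in L (adjusted p = 0.148). Tspan12 differed by 0.47 ± 0.09 in H (adjusted p = 0.0393) and 0.52 ± 0.10 in L (adjusted p = 0.0815), and Met by 0.67 ± 0.18 (adjusted p = 0.0974) and 0.70 ± 0.21 (adjusted p = 0.179), all limma. In H 1 of 10 members was called, Tspan12, against 2.43% of all genes, and in L 0 of 10 against 0.344%; at an unadjusted p under 0.05 there were 3 members in each, against 17.9% of all genes in H and 14.4% in L. The Tspan12 call in H was lost without any 1 of 8 arrays, all but knockout H replicates 2 and 3, with adjusted p from 0.0579 to 0.320.

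Between H and L directly, 0 of 10 members were called by limma, as were 0.0% of all genes. The controls entered this contrast only through the letter covariate and the shared spread. No brightest probe set of a member had an unadjusted p under 0.05, which 2.22% of all genes had. Among the other member probe sets tested on their own, 1450760_a_at of Ing3 did, at -0.14 (limma, unadjusted p = 0.0480, adjusted p = 0.99975). The estimates and their 95% intervals were -0.12 (-0.58 to 0.35) for Slc13a1, -0.04 (-0.22 to 0.14) for Tspan12 and -0.04 (-0.40 to 0.33) for Met. Among the brightest probe sets the estimate with the smallest p was that of Fam3c, -0.25 ± 0.12, lower in H, with a limma interval of -0.53 to 0.02. Between the same groups all 14 lung epithelium markers lay higher in H (median 0.32) and all 11 smooth muscle markers lower (median -0.57), none of them called. Upper against lower number range called 0 of 10 members, against 0.3% of all genes, and no member had an unadjusted p under 0.05, against 10.2%.

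**Figure D4:**
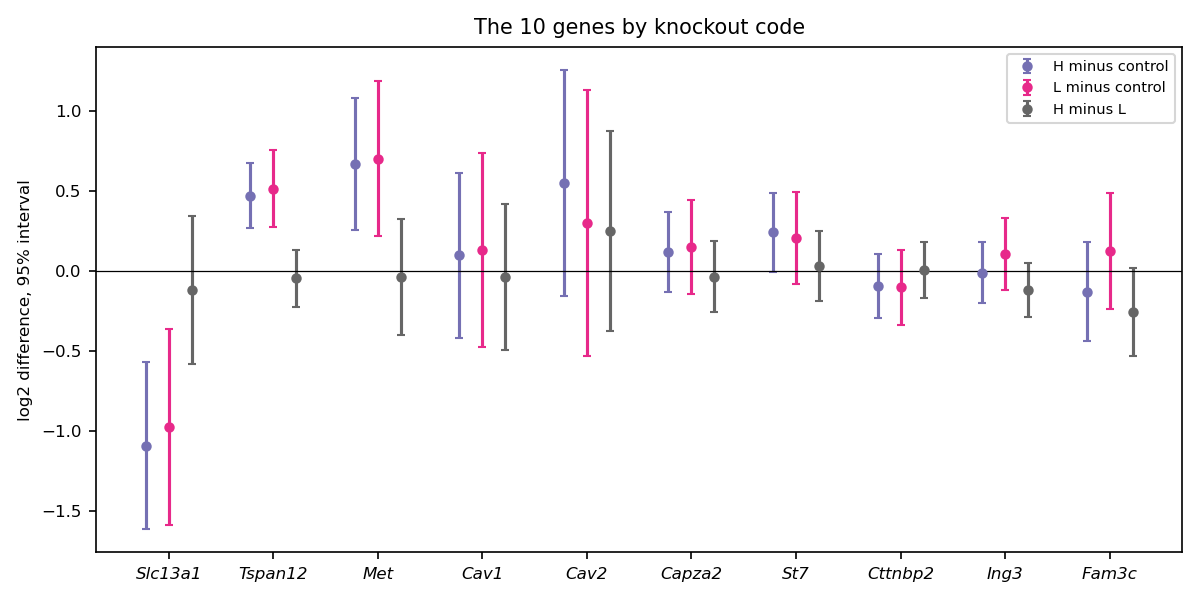
Log2 difference from the controls of each member in knockout H and knockout L, and the difference between H and L, with 95% confidence intervals. The H and L estimates of Slc13a1, Tspan12 and Met lie on the same side of 0, and all 10 intervals of H against L include 0.

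The wider stretch of chromosome 6 was read in gene order from RefSeq, among 721 tested genes, of which 43 precede Cftr and 677 follow it. The members lie 1 (Cttnbp2) to 8 (Slc13a1) tested genes from Cftr. Of the 25 tested genes before Cftr, 3 were called, all higher in the knockouts. C1galt1, the enzyme that extends O-linked sugar chains of mucins, averaged 218 ± 24.6 (SD, n = 8) against 102 ± 8.13 (SD, n = 2), a difference of 1.11 ± 0.11 (limma, adjusted p = 0.00658). Tmem168, a membrane protein, rose by 0.70 ± 0.11 (limma, adjusted p = 0.0161) and Ica1, a protein of secretory granule membranes, by 0.42 ± 0.09 (limma, adjusted p = 0.0348). Of these 25 differences 20 lay above 0 and their median was 0.21, and 11 of the 25 were higher in all 8 knockouts than in both controls, where 10% of all genes tested were.

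Of the 25 tested genes after Cftr, 3 were called, Tspan12 higher and Slc13a1 and Arf5 lower. Arf5, a small GTPase of vesicle traffic, differed by -0.35 ± 0.08 (limma, adjusted p = 0.049996). Of the 25 differences 14 lay above 0, with a median of 0.04, and 3 genes were higher and 3 lower in all 8 knockouts. Among the nearest 50, the members included, 6 were called (12.0%) and 18 did not overlap between knockouts and controls, where 21.8% of all genes tested did not. In the next 93 genes 17 did not overlap, and in the remaining 577 genes of the chromosome 117. Of the next 93 genes 4.3% were called, of the remaining 577 genes of the chromosome 3.12%, and of 12518 genes on other autosomes 4.35%. The call on C1galt1 was lost without control replicate 1 (adjusted p = 0.120). That on Tmem168 was lost without control replicate 1 (adjusted p = 0.0979), control replicate 2 (adjusted p = 0.116) or knockout H replicate 4 (adjusted p = 0.0505). Ica1 lost its call without either control, knockout H replicate 4 or 5, or knockout L replicate 2 or 3 (adjusted p from 0.0564 to 0.229). Arf5 lost its call without any 1 array other than knockout H replicate 2 (adjusted p from 0.0595 to 0.322), and in 18 of 24 alternative settings in all. Of 26 further genes near Cftr that were listed by name, 11 were tested and none was called; Cadps2 had the smallest p, at -0.31 ± 0.12 (limma, adjusted p = 0.202).

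**Figure D5:**
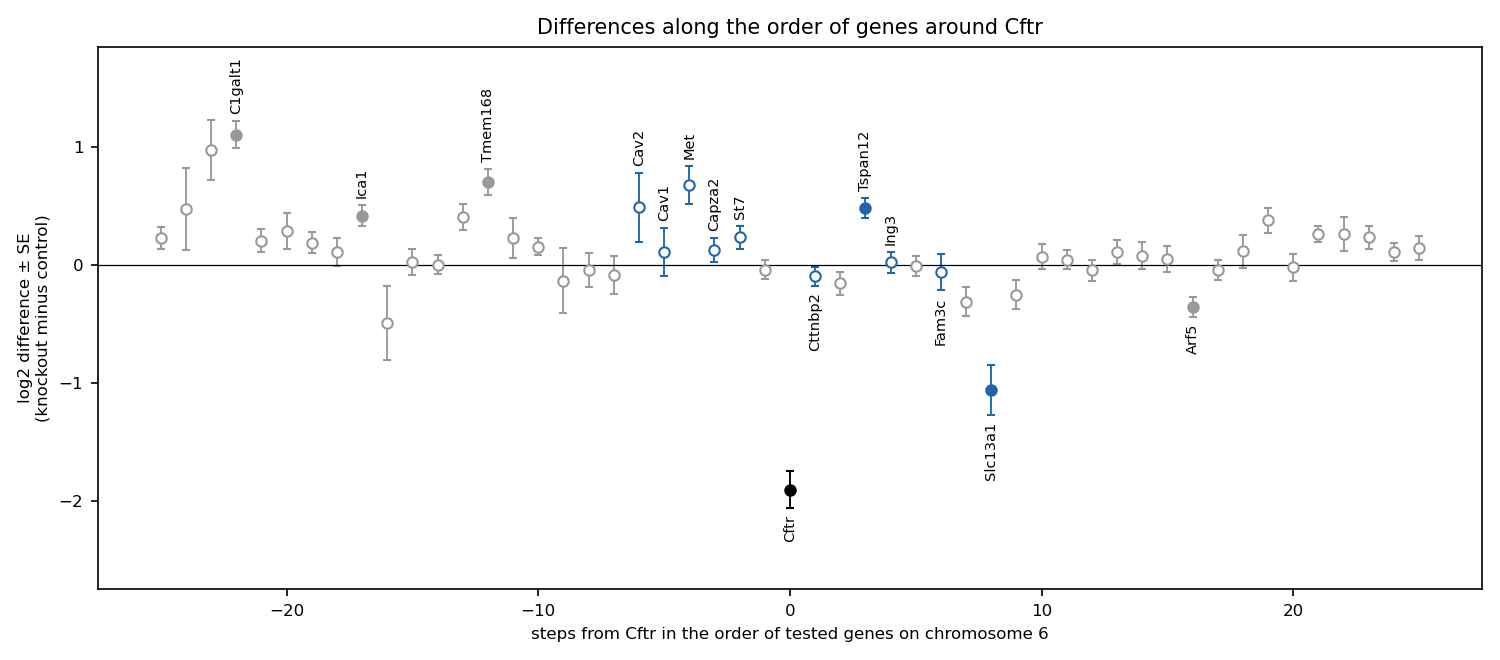
Log2 difference of knockout against control for the 25 tested genes on each side of Cftr, by number of tested genes from Cftr, as points with their standard errors; members are blue, Cftr black, and filled points are past the threshold. Of the 25 genes before Cftr 20 lie above 0, against 14 of the 25 after it.

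Of the 13644 genes tested, 721 lie on chromosome 6, so most genes lie elsewhere whatever their levels. The genes whose levels followed a called member most closely over the 10 arrays lay on other chromosomes, and are too few to show a part of location. For Slc13a1 these were Rab3gap2 (Pearson r = 0.97), 2210016F16Rik (0.96) and Mpp1 (0.96), on chromosomes 1, 13 and X. For Tspan12 they were Cog3 (0.97), Fndc3a (0.97) and Arfgef3 (0.97), on chromosomes 14, 14 and 10. Over the 8 knockouts alone r was 0.88, 0.92 and 0.86 for the first set and 0.95, 0.89 and 0.89 for the second. These are descriptions over arrays that share the step between knockout and control, picked as the highest among all genes tested.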

How the data were processed

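Gene expression was measured on 10 arrays, 8 from knockouts and 2 from controls. The values deposited by the authors are intensities on a linear scale, 1 for each probe set and array. How probe sets were summarized and arrays normalized is not given in the sources used here. Medians per array ran from 18.4 to 18.8, so they had been brought to a like level before deposit. Arrays have no read depth, and their number limits the precision.

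Of 45037 probe sets other than array controls, 34945 have 1 gene symbol in the platform annotation, 932 several and 9160 none; only the first kind named genes. Symbols, gene order and promoters came from RefSeq tables of GRCm38.p6, the only build used. For each gene the probe set with the highest mean was taken, and genes at or under the 25th percentile were left out, leaving 13644. Values were taken as log2(intensity + 16) and fitted with limma 3.58.1 in R 4.3.3 (lmFit, eBayes), with number range and letter as covariates and Benjamini-Hochberg adjustment at 0.05. The H, L and range comparisons came from a fit of 3 groups that share 1 spread. The fit was tested on simulated data with differences larger than that of any member, which cannot show how well smaller ones are recovered.

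The members and the gene lists were chosen with earlier results of these data known. Named are the members and Cftr, up to 4 genes of each list past the threshold by smallest p (otherwise the 1 with the smallest p), a few ligands or receptors of members chosen after their values were seen (Hgf, Fzd4), genes past the threshold among the 25 tested on each side of Cftr, and the 3 genes most correlated with each called member. The alternatives covered covariates, the added constant, the filter, the probe sets, normalization and each array left out; the omission of knockout H replicates 2 and 5 together was chosen after seeing the data.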

Additional observations from a re-analysis of the deposited data

Results flagged for a closer look

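Single arrays stood apart from their group by Dixon's criterion in 4 of 42 groups of 5 or 8 arrays, examined for the probe sets of the members and Cftr. Chance gives about 1 in 20. The 5 knockout H arrays are part of the 8 knockouts, so the groups are not independent, and the Met array below was counted in both. In the brighter Met probe set (1434447_at), knockout H replicate 3 read 339, against a next highest of 261 among the 5 knockout H arrays and of 265 among all 8 knockouts. The same array read 325 in the second Slc13a1 probe set (1430804_at), where the next of the 5 knockout H arrays read 215. In the dim Cttnbp2 probe set (1435435_at), knockout H replicate 2 read 5.80 among the 8 knockouts, and the next read 5.15.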

How the results depend on the processing

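Over 24 alternative settings and 1175 member values, 50 calls on members were gained or lost and no called member changed sign; 80 values that were not called changed sign. Without 1 array each, the estimate of Cav1 ran from -0.14 to 0.32 and that of Fam3c from -0.14 to 0.0037. No paired analysis was possible because the titles give no replicate numbers that the groups share. The precision is limited by the 2 controls and by the dim signal of St7, Cttnbp2 and Tspan12.

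For knockout against control, the 2 members called became 4 in the lower number range alone (Slc13a1, Tspan12, Met and Cav2) and 0 without both arrays highest in lung markers; without 1 array each the count ran from 0 to 3. The 588 genes called became 1366 without covariates, 1033 in the lower range alone and 952 with lung epithelium markers as a covariate, and ran from 0 to 813 without 1 array each.

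For knockout H against control, the 1 member called became 3 without covariates or with smooth muscle markers as a covariate, 4 in the lower range alone, 0 with an added constant of 64 or without both arrays highest in lung markers, and 2 with the number range alone as covariate, a filter at the 50th percentile, the mean of probe sets, every probe set on its own, quantile normalization, a trended eBayes or lung markers as a covariate; without 1 array each it was 0 or 1. The 331 genes became 878 without covariates, 1143 in the lower range alone, 155 with a constant of 1, 540 with lung markers and 99 without both lung-high arrays, and ran from 0 to 433 without 1 array each.

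For knockout L against control, the 0 members called became 1 without covariates, in the lower range alone or with lung markers as a covariate. The 47 genes became 543 without covariates, 173 with the number range alone, 761 in the lower range alone, 4 with a constant of 1, 5 with no filter, 3 with the 50th percentile filter, 9 for probe sets on their own, 296 with lung and 8 with smooth muscle markers as a covariate, and ran from 0 to 224 without 1 array each. Knockout H against knockout L gave 25 genes in the lower range alone and 0 without any 1 array. For upper against lower range, the 41 genes became 150 without the letter as a covariate. The settings without covariates and with the number range alone are the same fit for this comparison. The 41 genes became 26 with a constant of 1, 13 with the mean of probe sets and 94 for probe sets on their own. They became 19 with smooth muscle markers and 1 without both lung-high arrays, and ran from 0 to 44 without 1 array each. This comparison could not be fitted in the lower range alone. In the lower range alone knockout L is 1 array, replicate 3, so the counts given there for L have no spread of their own. The cause of these shifts was not tested.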

Other observations

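Some member probe sets lay under the level required for testing and are given as values. The second Cttnbp2 probe set (1435435_at) read 4.65 and 5.97 in the controls and from 4.60 to 5.80 in the knockouts. The dimmest Ing3 probe set (1460082_at) read 9.57 and 8.73 in the controls and from 7.88 to 11.8 in the knockouts. The groups overlapped in both. The dimmer Cftr probe set (1427767_a_at) read 6.51 and 6.11 in the controls and from 5.19 to 5.80 in the knockouts, so that it too was lower in every knockout, close to the lowest values of the arrays.

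Markers of other cell types that the samples could hold were followed beside the members. All 7 fibroblast markers had differences above 0 (median 0.33), and 2 had an unadjusted limma p under 0.05, against 19.4% of all genes tested. In knockout against control 1 was called (14.3%, against 4.31% of all genes tested). This was Lum, a collagen-binding proteoglycan, which rose by 0.95 ± 0.21 (limma, adjusted p = 0.0415). The Lum call was lost without either control, knockout H replicate 4 or 5, or knockout L replicate 2 or 3 (adjusted p from 0.0650 to 0.319). None of the 14 lung epithelium, 12 endothelium, 11 smooth muscle and 10 leukocyte markers tested was called by limma, and none of these had an unadjusted p under 0.05. The part of any of these cells in the values of the members was not tested.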
